A study of Mus musculus with 8 samples.

Results

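The m6A writer genes examined in mouse liver were *Wtap*, *Mettl3*, *Mettl14*, *Virma*, *Zc3h13*, *Rbm15*, *Rbm15b*, *Cbll1*, *Mettl16* and *Pcif1*, 10 genes chosen by name, with *Virma* also looked up as 1110037F02Rik. They held 24 of the 15635 m6A peaks of *Wtap* flox/flox livers, 26 of the 19185 peaks of *Wtap*-HKO livers, and 3 of the 3870 rows of a list of peaks that differed between the genotypes. Peaks were found in 8 of the 10 genes, out of 11558 genes with a peak in either genotype. The number of peaks and the enrichment at most sites of the partners of WTAP were close in both genotypes. The median log2 ratio of *Wtap*-HKO over *Wtap* flox/flox enrichment was -0.02 at matched sites of the partners and 0.01 over all matched sites. Of 20 matched sites of the writer genes, 1 was lower past 2-fold, against 12.4% of all matched sites. It was the 3′-most peak of *Virma*, 3.94-fold lower in *Wtap*-HKO livers. Another 2 were higher, against 14.9% of all matched sites. They lay in *Zc3h13* and *Wtap* and were 2.24-fold and 2.35-fold higher. No peak of *Mettl3* or *Mettl14* was listed in either genotype.

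The study asked how deletion of *Wtap* in hepatocytes leads to steatohepatitis. Its m6A data were made to ask whether WTAP regulates m6A in liver mRNA, and thereby the expression of genes tied to the disease. Both groups were male mice, 8 weeks old and on normal chow, with the strain given as C57BL/6 in the labels and as C57BL/6J in the methods. Control mice were *Wtap* flox/flox, with exon 4 of *Wtap* between loxP sites and no Cre. *Wtap*-HKO mice carried the same floxed alleles together with *Alb*-Cre, whose albumin promoter acts in hepatocytes, so that the other cells of the liver keep *Wtap* in both groups. In m6ARIP-seq, poly(A)+ RNA fragments pulled down by an antibody to m6A (IP) are sequenced together with a sample of the starting RNA (input). There were 2 IP and 2 input libraries per genotype, 8 in all, and each replicate was pooled from 5 mice.

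Each list combines the replicates of its genotype. A peak therefore has 1 value per genotype, and no difference given here has a replicate error or a test. Reads are not part of the lists, so the depth is unknown, deletion of exon 4 could not be checked in them, and an absent peak cannot be told from low expression. Of markers of liver cell types, 5 of 8 hepatocyte markers had a peak in each genotype, though not the same 5. Of 4 Kupffer cell markers, 1 had a peak in *Wtap* flox/flox livers and 3 in *Wtap*-HKO livers, and the corresponding numbers were 3 and 3 of 4 for endothelial cells, 2 and 3 of 4 for stellate cells, 0 and 1 of 3 for leukocytes, and 1 and 2 of 3 for cholangiocytes. Over all genes, 8186 had a peak in *Wtap* flox/flox livers and 9582 in *Wtap*-HKO livers. The part of other liver cells in the values below was not tested. In bulk tissue, fewer cells of a type and less RNA per cell cannot be told apart.

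m6A is written on nascent mRNA by a complex of many subunits. METTL3 carries the catalytic site, and METTL14 holds the RNA beside it. WTAP anchors this pair to a regulatory part made of VIRMA, ZC3H13, the ubiquitin ligase HAKAI (encoded by *Cbll1*) and either RBM15 or RBM15B, which bind RNA. METTL16 and PCIF1 work outside this complex. METTL16 methylates U6 small nuclear RNA and the transcript of *Mat2a*, which makes the methyl donor S-adenosylmethionine. PCIF1 methylates the adenosine next to the mRNA cap.

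Peaks over the start of a gene were seen for 3 of these genes, in *Wtap*-HKO livers and not in *Wtap* flox/flox livers. Within 200 nt of a listed start, this held for 3 of 7 writer genes with a peak and a listed start. The share over all 7962 such genes was 22.1%. The first 30 bases of each start covered by such a peak are shown on the transcribed strand to give their place, as listed by RefSeq on GRCm38.p6, with the first base of the transcript in capitals.
*Rbm15b*, chr9:106887046-106887075, minus strand: Gagtccttttgtccaagatggcggcgccgg
*Rbm15*, chr3:107333260-107333289, minus strand: Ggtgaccatgaagtgcgaggggcggagcta
*Pcif1*, the second of 2 listed starts, chr2:164880052-164880081, plus strand: Agatacagttgtttgtctctagactacgct
The first base was G at 2 of the starts and A at 1. Among 32851 listed gene starts, 35.6% begin with G and 34.4% with A. The letters GGAC, the core of the common m6A motif, were not found on the transcribed strand in the first 50 bases of these 3 starts, and 18.9% of all listed starts have them there. That count says only which letters these windows hold. The first listed start of *Pcif1* (164879368) had the *Wtap*-HKO peak within 200 nt but not over it. It begins with G and does have GGAC in that window.

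The values used below are the fold enrichment of each peak, which is the ratio of IP to input. For the writer genes its median was 7.0 in *Wtap* flox/flox (range 3.07 to 25.5) and 6.45 in *Wtap*-HKO livers (range 3.33 to 20.6), against 5.51 and 5.93 over all peaks. A peak counted as shared if it had 1 exonic base or more in common with a peak of the other genotype, strand included. Of the *Wtap* flox/flox peaks of the writer genes, 2 of 24 overlapped no *Wtap*-HKO peak, where the share over all peaks was 19.9%. Of the *Wtap*-HKO peaks, 4 of 26 overlapped no *Wtap* flox/flox peak, where the share over all peaks was 35.3%. The exonic lengths of these peaks summed to 9650 nt in *Wtap* flox/flox livers and 9833 nt in *Wtap*-HKO livers. Bases shared by the overlapping peaks of *Rbm15b* enter these sums more than once. Peaks of a gene share its transcript and are not independent of each other.

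At 20 sites, 1 peak of a genotype matched exactly 1 peak of the other. *Wtap*-HKO livers had the lower fold enrichment at 11 of these sites and the higher at 9. The median log2 ratio of *Wtap*-HKO over *Wtap* flox/flox was -0.02 (quartiles -0.34 and 0.19, range -1.98 to 1.23), while over all 10499 matched sites it was 0.01 (quartiles -0.59 and 0.66). Past 2-fold, 1 of the 20 sites was lower, against 12.4% of all matched sites, and 2 were higher, against 14.9%. By percentile rank within its own list, which no single scaling factor of a genotype can change, the median shift was -5.15 for the writer genes and -3.34 for all matched sites. The lists differ in length, and with ranks taken among matched sites alone the median shift of the writer genes was -1.61. The false discovery rate of the peak was smaller in *Wtap*-HKO livers at 17 of the 20 sites, compared with 57.9% of all matched sites. That rate also depends on read depth, which is unknown, so the count is no measure of methylation.

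**Figure D1:**
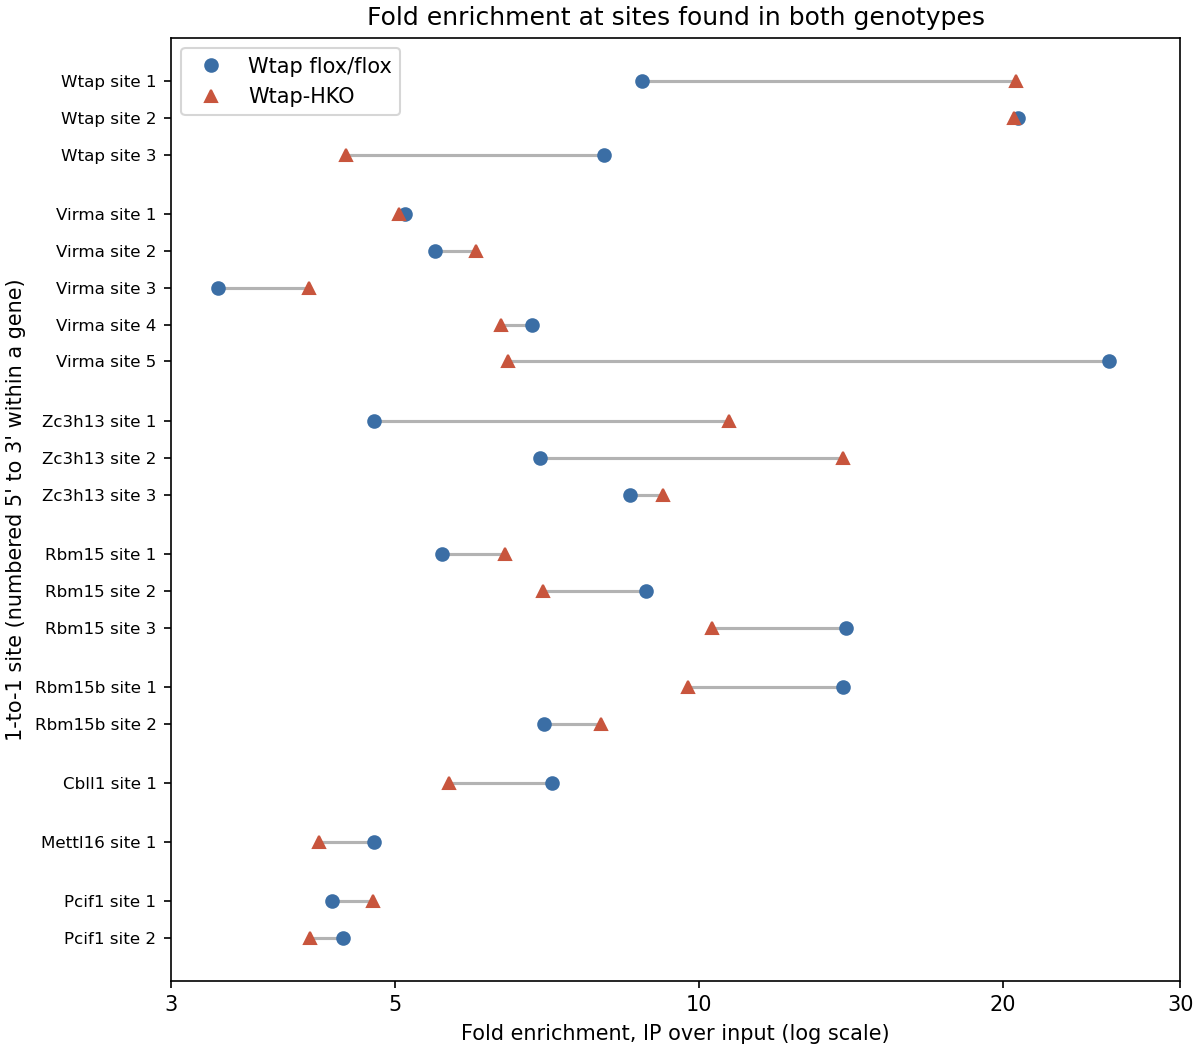
Fold enrichment (IP over input, log axis) at the 20 matched sites of the writer genes, ordered 5′ to 3′ within each gene, in *Wtap* flox/flox (circles) and *Wtap*-HKO livers (triangles), with a line joining both values of a site. Most lines are short, and the longest belongs to the 3′-most site of *Virma*, which went from 25.5 to 6.47.

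**Figure D2:**
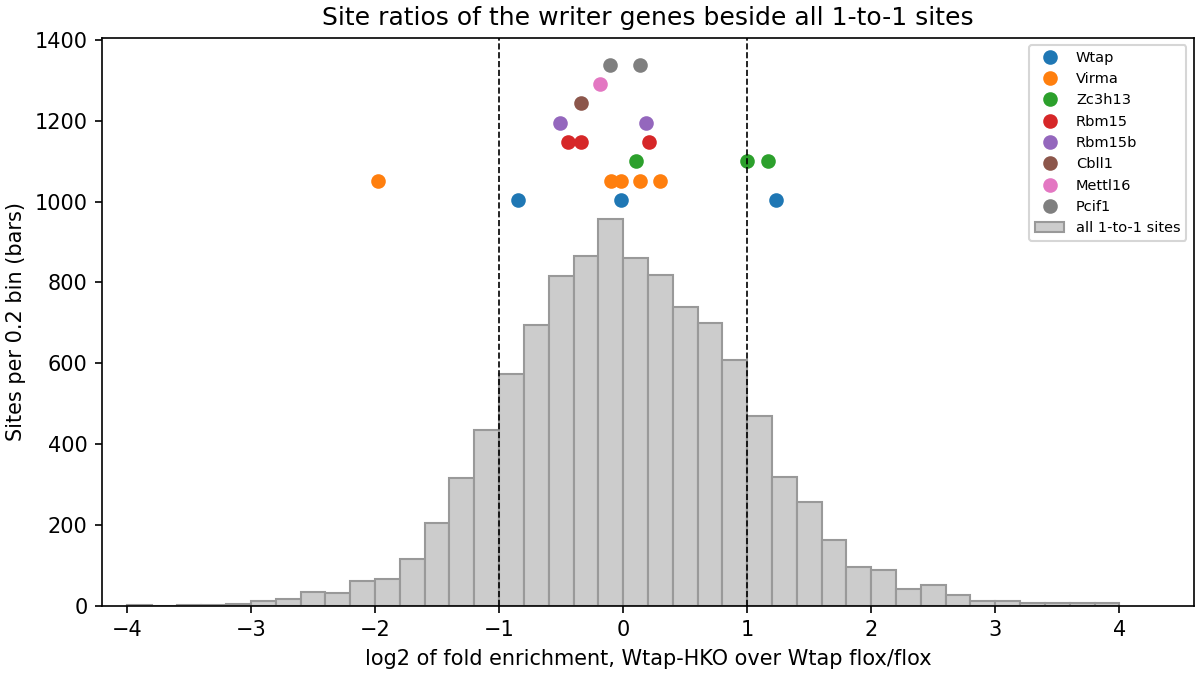
Distribution of the log2 ratio of fold enrichment, *Wtap*-HKO over *Wtap* flox/flox, over all 10499 matched sites, in bars of 0.2 with values past 4 in the last bar, and the 20 sites of the writer genes as points above them at heights with no meaning. The sites of the writer genes lie between -1.98 and 1.23, with 1 below and 2 above the dashed 2-fold lines.

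The catalytic pair had no peak. *Mettl3* (chromosome 14, 52294841 to 52308741) and *Mettl14* (chromosome 3, 123368295 to 123385990), both on GRCm38, had 0 peaks under their names in each of the 3 lists, and no peak of any gene lay within their spans on either strand. Of 21900 protein-coding genes in RefSeq, 45.2% had a peak in at least 1 genotype.

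*Wtap* itself (ENSMUSG00000060475, chromosome 17, 12966799 to 12992543, minus strand) kept 3 peaks in *Wtap*-HKO livers. They moved in different directions along the gene. The 5′-most site went from 8.78 to 20.6, the middle site (12974622 to 12974981) stayed at 20.7 and 20.5, and the 3′-most site fell from 8.06 to 4.47, a log2 ratio of -0.85. The 5′-most peak was a block of 225 nt at 12975250 to 12975474 with 15 nt more at 12980822 to 12980836 in *Wtap* flox/flox livers. In *Wtap*-HKO livers that peak was a single block of 210 nt without the 15 nt. The 3′-most peak likewise lost its block of 25 nt at 12972685 to 12972709, and its middle block shortened from 155 to 60 nt. These changes of outline alter the bases over which each enrichment was computed.

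*Virma* (ENSMUSG00000040720, chromosome 4, 11485958 to 11551143, plus strand), which encodes a large scaffold subunit of the complex, carried 5 peaks in *Wtap* flox/flox livers and 6 in *Wtap*-HKO livers. At least 5 peaks were present in 2.85% of the genes with a peak in *Wtap* flox/flox livers, and at least 6 in 1.52% of those in *Wtap*-HKO livers. The 4 matched sites within the gene body were nearly level. They went from 5.12 to 5.05 at 11507995 to 11513113, from 5.48 to 6.02 at 11513682 to 11513982, from 3.34 to 4.11 at 11519069 to 11519249, and from 6.83 to 6.37 at 11526637 to 11526817. An added peak in *Wtap*-HKO livers at 11513262 to 11513532 lay between the first pair of these sites, with a fold enrichment of 4.49.

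The site nearest the 3′ end of *Virma* stood apart from the rest of the gene. In *Wtap* flox/flox livers it covered 301 nt at 11550324 to 11550624, 519 nt from the 3′ end, and its fold enrichment of 25.5 was the highest of any writer gene peak. In *Wtap*-HKO livers it covered 151 nt at 11550444 to 11550594 with a fold enrichment of 6.47. Its percentile rank moved from 95.6 to 54.2, and its log2 ratio of -1.98 lay at percentile 1.66 of all matched sites. The *Wtap*-HKO peak lay within the *Wtap* flox/flox peak and covered 50.2% of its bases, so this ratio compares peaks of different outline. The log10 of the false discovery rate was -14.0 in *Wtap* flox/flox livers and the weaker -7.27 in *Wtap*-HKO livers. No row of the list of differential peaks fell in *Virma*.

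*Zc3h13* (ENSMUSG00000022000, chromosome 14, 75284306 to 75344433, plus strand), whose product links the complex to its RNA-binding partners and holds it in the nucleus, was the only writer gene with fewer peaks in *Wtap*-HKO livers, 3 against 5. All 3 shared sites had the higher value in *Wtap*-HKO livers. The 5′-most, with the same bounds in both genotypes (75323226 to 75323525, 300 nt), went from 4.77 to 10.7, or 2.24-fold higher. The next went from 6.96 (75327600 to 75329697) to 13.9 (75324601 to 75329697), a ratio of 1.997 that fell just short of 2-fold, and the site at 75331810 to 75332139 went from 8.55 to 9.21.

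The other peaks of *Zc3h13* were listed in *Wtap* flox/flox livers alone. They lay at 75330437 to 75330587, with a fold enrichment of 3.07, and at 75343648 to 75344067, 366 nt from the 3′ end of the gene, with a fold enrichment of 5.67. The log10 of the false discovery rate was -5.01 for the former and -29.8 for the latter, so that the lost peak at the 3′ end was the stronger call.

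**Figure D3:**
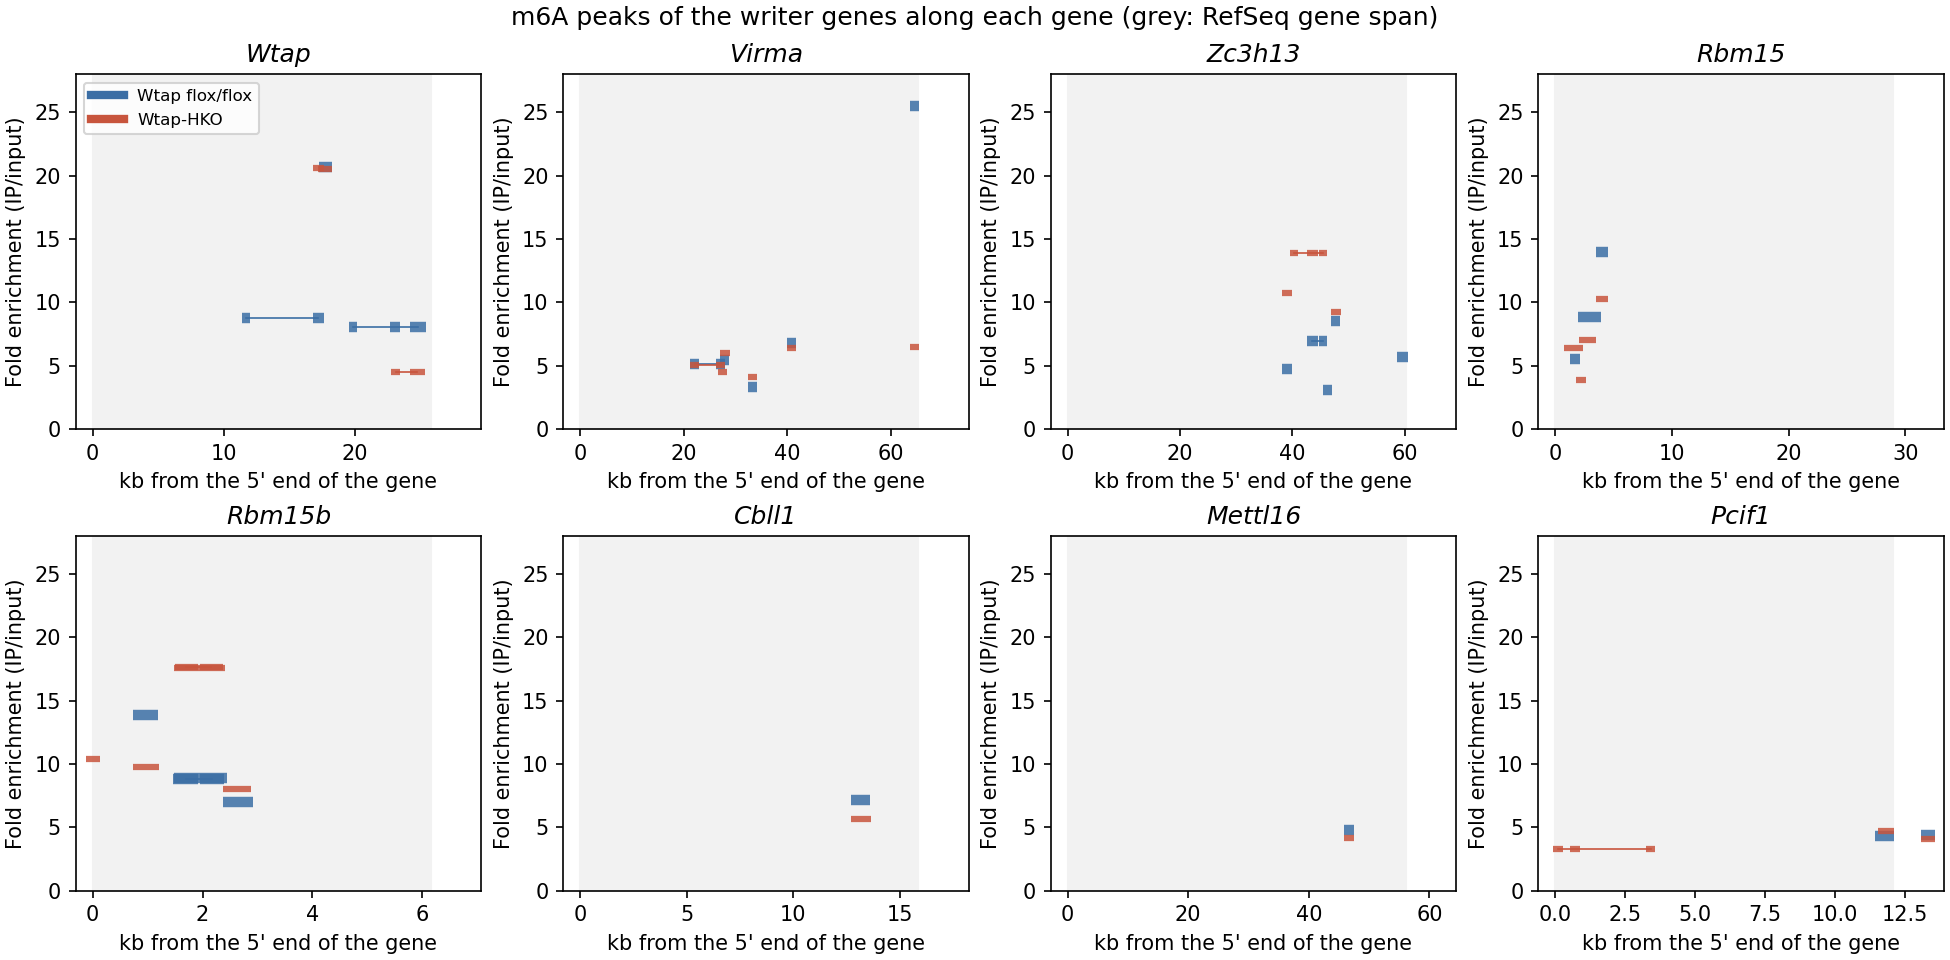
Exonic blocks of each m6A peak along the 8 writer genes that had one, in kb from the 5′ end of the gene, with fold enrichment (IP over input) on the vertical axis and grey for the RefSeq gene span. Blocks of a peak are joined by a thin line, and short blocks are widened to be visible. In *Virma* the *Wtap* flox/flox peak near the 3′ end stands at 25.5 and the *Wtap*-HKO peak at 6.47, and in *Zc3h13* the peak near the 3′ end has no *Wtap*-HKO counterpart.

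*Rbm15* and *Rbm15b*, which encode the RNA-binding adaptors, both had a peak more in *Wtap*-HKO livers. In *Rbm15* (ENSMUSG00000048109, chromosome 3, 107305511 to 107334460, minus strand), the strongest site (107330231 to 107330620) went from 14.0 to 10.3, and the site upstream of it (107330890 to 107332117) from 8.86 to 7.01. The site nearest the 5′ end differed in length more than in height. It covered 151 nt (107332685 to 107332835) at an enrichment of 5.56-fold in *Wtap* flox/flox livers, and 959 nt (107332386 to 107333344) with 6.43 in *Wtap*-HKO livers, where it ran over the gene start shown above. A peak of 150 nt at 107332177 to 107332326, with a fold enrichment of 3.90, was listed in *Wtap*-HKO livers alone.

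In *Rbm15b* (ENSMUSG00000074102, chromosome 9, 106880928 to 106887075, minus strand), the strongest *Wtap* flox/flox site (106885965 to 106886263) went from 13.9 to 9.75, a log2 ratio of -0.51. The 3′-most site (106884233 to 106884621) went from 7.03 to 8.00. Between them each list held 2 rows that overlap each other, so that they could not be matched 1 to 1. These rows had fold enrichments of 8.93 and 8.86 in *Wtap* flox/flox livers and 17.6 and 17.7 in *Wtap*-HKO livers. The rows share 580 nt in the former genotype and 534 nt in the latter, and merged into 1 site they gave a log2 ratio of 0.99. The peak over the gene start (106887010 to 106887129, 120 nt), present in *Wtap*-HKO livers alone, had a fold enrichment of 10.4. The log10 of its false discovery rate, -4.78, was the weakest of any writer gene peak.

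*Cbll1* (ENSMUSG00000020659, chromosome 12, 31484829 to 31500676, minus strand) had 1 site, at 31487251 to 31487759, which went from 7.16 to 5.65. An unnamed gene on the opposite strand (ENSMUSG00000099851) was listed at the same place with the same fold enrichments, sharing 348 nt in *Wtap* flox/flox livers and 377 nt in *Wtap*-HKO livers. The strand of the signal at *Cbll1* can therefore not be told apart.

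The methyltransferases outside the complex changed little at their shared sites. *Mettl16* (ENSMUSG00000010554, chromosome 11, 74770815 to 74826855, plus strand) had 1 site, at 74817316 to 74817646, with fold enrichments of 4.77 and 4.20. *Pcif1* (ENSMUSG00000039849, chromosome 2, 164879368 to 164891440, plus strand) had a site 123 nt from its 3′ end (164890958 to 164891317), with 4.33 and 4.76. The other shared site under its name (164892572 to 164892811), with 4.44 and 4.12, lay wholly past the RefSeq end of *Pcif1* and inside *Zfp335* on the opposite strand (164891882 to 164912585). In *Wtap* flox/flox livers a peak of *Zfp335* itself (164892586 to 164892892, fold enrichment 2.79) shared 105 nt with it. The gene behind the signal at that site can therefore not be told apart. *Zfp335* is named here only for that overlap. The peak of *Pcif1* at its 5′ end was listed in *Wtap*-HKO livers alone, with a fold enrichment of 3.33 over 91 exonic nt, in blocks of 37, 47 and 7 nt between 164879453 and 164882781. RefSeq places the noncoding RNA genes *4930445K14Rik* and *Gm46775* over this whole peak and over part of the site at the 3′ end, respectively, where their reads cannot be told apart from those of *Pcif1*.

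The list of differential peaks held 1 row in *Wtap* (12967454 to 12972709) and 2 in *Zc3h13* (75324601 to 75329727 and 75343648 to 75344247). These rows overlapped 3 of the 24 *Wtap* flox/flox peaks of the writer genes, beside 22.3% of all *Wtap* flox/flox peaks, and 2 of the 26 *Wtap*-HKO peaks, beside 18.1% of all *Wtap*-HKO peaks. The site of *Virma* at the 3′ end, with the largest ratio among the writer genes, was not among them. Only the positions of these rows were used.

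Peaks near gene starts appeared in *Wtap*-HKO livers. Of the 4 writer gene peaks found in *Wtap*-HKO livers alone, 2 lay within 200 nt of the 5′ end of the gene span, those of *Rbm15b* and *Pcif1*, against 27.3% of all such peaks. Counted from listed gene starts, *Rbm15*, *Rbm15b* and *Pcif1* had a *Wtap*-HKO peak and no *Wtap* flox/flox peak within 200 nt, which is 3 of 7 writer genes with a peak and a listed start. The share over all 7962 such genes was 22.1%. No writer gene had a *Wtap* flox/flox peak that close to a listed start. Of all 7962 such genes, 1576 had a *Wtap* flox/flox peak that close and 3204 had a *Wtap*-HKO peak. At *Rbm15* the start was reached by the wider outline of a shared peak. The start peak of *Rbm15b* had a log10 false discovery rate of -4.78, the weakest of any writer gene peak. The start peak of *Pcif1* lay wholly inside the noncoding RNA gene *4930445K14Rik*. At the 3′ end, each genotype had 1 peak within 200 nt, the one of *Pcif1*.

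Along single genes, the matched site nearest the 5′ end had the higher log2 ratio in 5 of the 6 writer genes with at least 2 matched sites, against 62.9% of 2332 genes. The 5′ minus 3′ difference of the log2 ratios was 2.08 in *Wtap*, 1.96 in *Virma*, 1.06 in *Zc3h13*, 0.65 in *Rbm15* and 0.24 in *Pcif1*. It was -0.70 in *Rbm15b*, the exception. The median was 0.86 over the 6 writer genes and 0.38 over all genes. The 3′ site of *Pcif1* used here is the one past its RefSeq end, inside *Zfp335* on the opposite strand. Without that site, *Pcif1* would not enter this count or this median. With 6 genes, and *Wtap* the deleted gene among them, this is a description of these lists. The same series-wide tendency was known before these genes were examined.

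Other genes of the m6A pathway were taken from a list of 17 readers, erasers, other methyltransferases and *Mat2a*. Peaks were found in 12 of them, 16 in *Wtap* flox/flox livers and 23 in *Wtap*-HKO livers. Of these, 2 and 7 overlapped no peak of the other genotype, beside 19.9% and 35.3% of all peaks. Of 11 matched sites, 2 were lower and 2 were higher past 2-fold, beside 12.4% and 14.9% of all matched sites. The median log2 ratio was 0.64, and 0.01 over all matched sites. Both lower sites belonged to *Ythdf2* (chromosome 4), a reader that brings methylated mRNA to decay. They went from 10.7 to 4.67 (132186705 to 132205054) and from 6.48 to 1.94 (132205203 to 132205591). The reader *Ythdf3* (chromosome 3) went from 5.62 to 13.9 at 16183212 to 16183943 and from 9.22 to 7.73 at 16204014 to 16214281. *Mat2a* (chromosome 6), the target of METTL16, went from 2.92 to 7.25 at 72432829 to 72433367 and from 2.93 to 4.56 at 72434174 to 72434354. The bounds given are those of the *Wtap* flox/flox peaks. In *Wtap*-HKO livers the first *Ythdf3* peak ran from 16183212 to 16187022, and the second *Ythdf2* peak from 132205352 to 132205472. These ratios therefore compare peaks of different outline. Rows of the list of differential peaks overlapped 5 of the 16 *Wtap* flox/flox peaks of these genes and 7 of the 23 *Wtap*-HKO peaks, beside 22.3% and 18.1% of all peaks.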

How the data were processed

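Livers of 8-week-old mice were analysed by m6ARIP-seq in 8 samples, 2 IP and 2 input libraries for each of 2 genotypes. Per the study's methods and the submitters' processing notes, 150 bp paired-end reads were trimmed with fastp 0.19.11 and aligned to GRCm38 with BWA mem 0.7.12. Peaks were called with exomePeak 2.16.0, and HOMER 4.9.1 was used for motifs. The authors deposited 3 lists, in which the replicates are combined by a rule not given in the sources used here. The fold enrichment that the authors deposited is a ratio, on a linear scale, of IP to input. The false discovery rates that the authors deposited are log10 scores. The fold change and p-value columns of the differential list are the authors' own comparison of the genotypes and were not used. The library kit is not stated to keep strand. Depth is unknown, so no interval or smallest detectable enrichment can be given.

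Rows were taken by gene name. Starts are printed 1-based. Sites were matched 1 to 1 where each peak shared at least 1 exonic base with exactly 1 peak of the other genotype on the same strand, and called past 2-fold. Ranks are percentiles within a list. Distances use RefSeq spans on GRCm38.p6, introns included. All 10 writer genes are named with all of their peaks. Of the 17 other pathway genes, *Mat2a* and those with a matched site past 2-fold are named. The genes, the pathway list and the marker lists were chosen with earlier results of these data known. The distance to listed gene starts, the order along genes and the direction of the false discovery rates were added after these lists had been examined. No sequence of the peaks was read, since no genome was used here. RefSeq starts were listed for 8 of the 10 genes, without *Virma* and *Mettl14*. Alternatives were stricter peak filters, other overlap rules, merged sites, centred ratios, a 1.5-fold threshold, other ranks, a distance of 500 nt and omission of *Wtap*. Python 3.11.15, pandas 2.3.3, numpy 2.4.6, networkx 3.6.1 and matplotlib 3.10.9 were used, and the matching of peaks was tested on simulated data.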

Additional observations from a re-analysis of the deposited data

How the results depend on the processing

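Of 38 alternative values, 30 stayed within 1.5 times a count or close to the reported value and 8 moved. The median log2 ratio of the writer genes, -0.017, became -0.029 when centred on the median of all matched sites and -0.014 with overlapping peaks merged, and so stayed near 0. At a 1.5-fold threshold the lower sites went from 1 to 2 of 20 and the higher sites from 2 to 3. Of all matched sites, 25% were lower and 27.9% higher at that threshold. The higher sites of the other pathway genes went from 2 to 6 of 11. Without *Wtap* the higher sites went from 2 to 1 and the median rank shift from -5.15 to -4.70. Ranking among matched sites alone gave a shift of -1.61. Within 500 nt of the 3′ end, 2 *Wtap* flox/flox peaks were counted in place of 1. Peak counts ranged from 23 to 24 in *Wtap* flox/flox and from 25 to 26 in *Wtap*-HKO livers under the other filters. No paired analysis was possible because the lists combine the replicates of a genotype, and for the same reason no replicate could be left out. Depth is unknown and limits every statement on an absent peak.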
